A study of Mus musculus with 23 samples.

Results

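The 10 genes described here push cells into the cell cycle or hold them back: the D-type cyclins Ccnd1, Ccnd2 and Ccnd3, their kinase partner Cdk6, the E-type cyclins Ccne1 and Ccne2, the kinase inhibitor Cdkn1b, and the MYC family members Myc, Mycn and Mycl. They were chosen by name as rows of the deposited count table, by a rule that used no measured value, but with earlier results of these data known. All 10 were found among the 53607 gene rows, and all 10 passed the filter on low counts that left 20372 genes for testing.

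RNA was sequenced from 23 libraries of mouse embryonic stem cells in 8 groups, with 3 libraries in each group and 2 in the reference line in FA. Every group, controls included, was of the Raslox/lox background, labelled H-Ras-/- and N-Ras-/- and carrying the Ubiq-CreERT2 transgene, which encodes a Cre recombinase that 4-hydroxytamoxifen switches on. RAS-deleted groups had received 4-hydroxytamoxifen for 6 days and groups with RAS present had not, so drug and deletion cannot be told apart. Each of these states was combined with the label ERF WT or ERF KO. The reference line has ERF wild type and RAS present. Cells were kept in 2iL, which is N2B27 medium with the MEK inhibitor PD0325901, the GSK3 inhibitor CHIR99021 and the cytokine LIF, or were moved for 48 hours to FA, which is N2B27 medium with serum replacement, FGF2 and Activin A on fibronectin. The design addresses whether RAS and ERF alter the response to FA. The labels do not say whether the libraries of a group came from separate cultures, so p-values measure the spread between these libraries, which may be technical. The labels also do not say whether the ERF KO cells are 1 clone.

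RAS proteins carry growth factor signals through RAF and MEK to the kinase ERK, which is known to raise MYC and the D-type cyclins in many cell types. D-type cyclins bind CDK4 or CDK6 and relieve the block that RB proteins place on E2F factors. E-type cyclins with CDK2 then take the cell into S phase, and Cdkn1b, which encodes p27, binds cyclin and CDK complexes and slows them. MYC, MYCN and MYCL are related transcription factors that pair with MAX and drive growth. Embryonic stem cells are known for a short G1 phase, and ERF is a repressor of the ETS family that ERK phosphorylates and removes from the nucleus.

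Library totals ran from 16221640 to 29874207 counts, of which 17.6 to 27.9% fell on the single row Gm26917. In 2iL the targeted gene Erf was not lower under its knockout label: with RAS present it lay at 96.1 to 129 CPM (counts-per-million, scaled to the effective library size) under the label and at 70.6 to 85.7 CPM in the reference line, and with RAS deleted at 130 to 172 CPM and 83 to 90.2 CPM. In FA it was at 50.7 to 64.8 CPM under the label and 56.5 to 69.8 CPM without it with RAS present, and at 49.3 to 67.9 CPM and 66.8 to 74.4 CPM with RAS deleted, lower on average but with overlap. Where the gene was edited is not given in the sources used here, so "ERF knockout" below repeats a label that the counts of Erf in 2iL go against. Hras and Nras also had counts in every library. Of the defining markers of embryonic stem cells, Pou5f1 and Sox2 together stood at 359 to 951 CPM in the 23 libraries, whereas the 6 fibroblast feeder markers together stood at 2.23 to 8.49 CPM. In the 4 libraries numbered 1 of the ERF wild type line, genes of chromosome 8 had a median deviation of 0.23 to 0.30 (log2) from their mean over all libraries of the same medium, beside -0.08 to 0.01 in the other libraries; none of the 10 genes is on chromosome 8.

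Per kilobase of effective length, the scale on which genes can be compared, the levels in the reference line in 2iL spanned a wide range. Ccnd3 was the most abundant D-type cyclin at 122 ± 15.1 CPM per kb (SD, n = 3), followed by Ccnd1 at 23.7 ± 1.26 CPM per kb and Ccnd2 at 0.397 ± 0.206 CPM per kb. Among the MYC genes Mycn stood at 29.8 ± 5.36 CPM per kb, Mycl at 6.47 ± 1.74 CPM per kb and Myc at 0.187 ± 0.103 CPM per kb. Thus Ccnd3 and Mycn were the main members of their families in naive medium. In the reference line in FA (n = 2) the D-type cyclins kept this order, with Ccnd3 at 37.2 ± 6.07 CPM per kb, Ccnd1 at 18.7 ± 13.4 CPM per kb and Ccnd2 at 4.44 ± 0.411 CPM per kb. Of the MYC genes, Myc was at 20.6 ± 3.53 CPM per kb, Mycn at 17.2 ± 2.21 CPM per kb and Mycl at 10.2 ± 2.92 CPM per kb, and the spreads of Myc and Mycn overlapped. In RAS-deleted cells in FA with ERF wild type (n = 3), Mycn was at 60.5 ± 9.79 CPM per kb and Myc at 1.49 ± 1.35 CPM per kb.

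**Figure D1:**
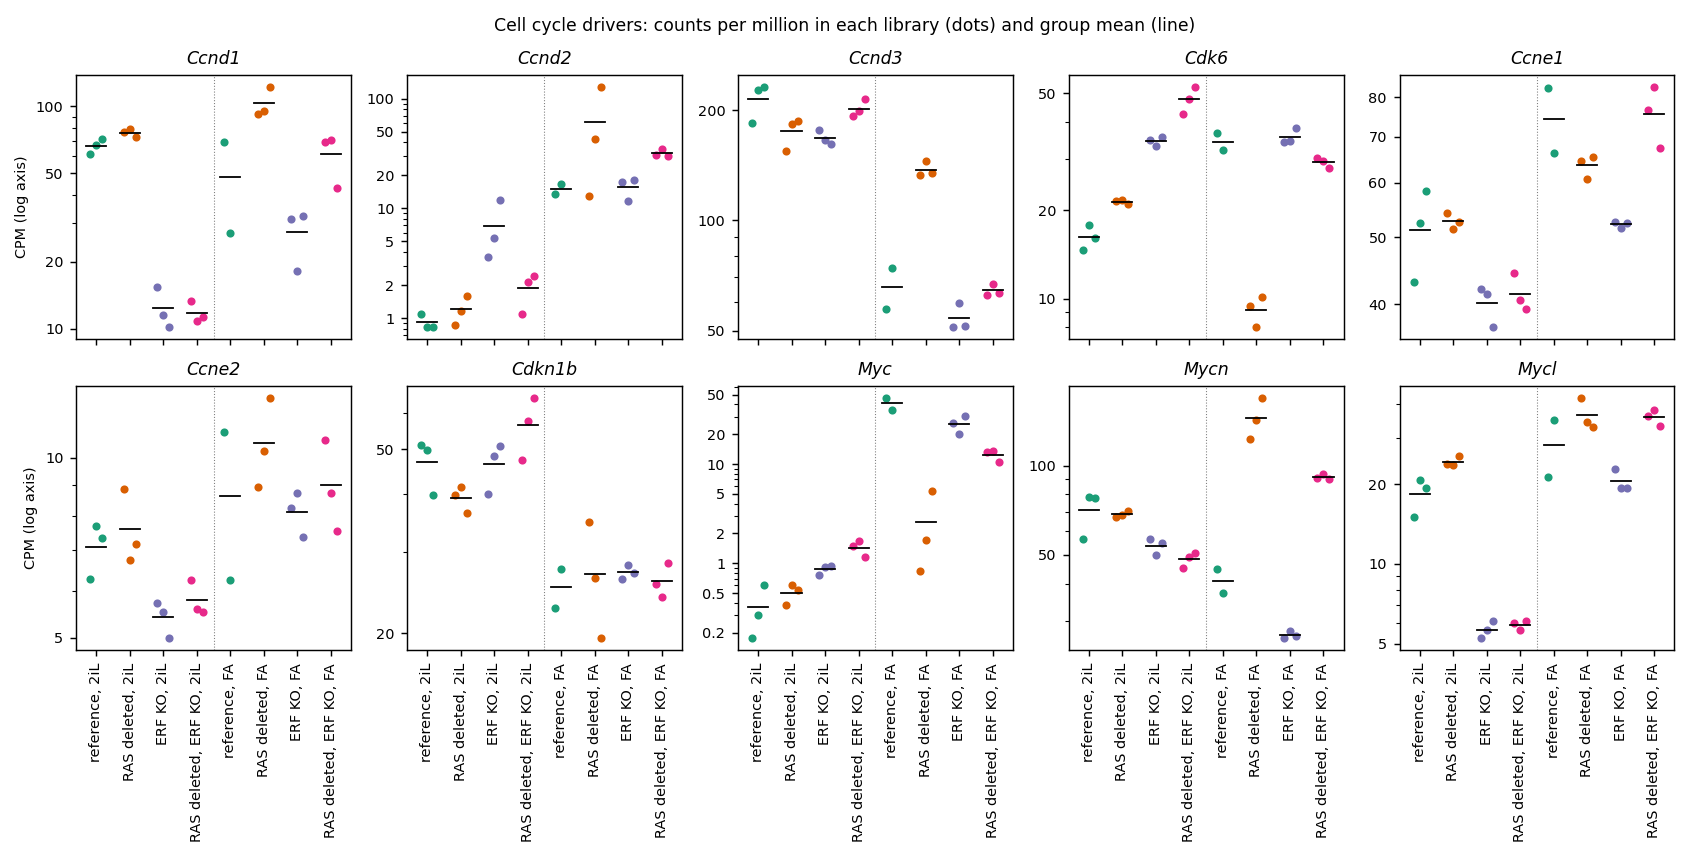
CPM (log axis, a separate scale for each gene) of the 10 genes in each of the 23 libraries; dots are libraries, lines are group means, and the dotted line separates 2iL from FA. Myc is low in all 2iL groups and in RAS-deleted cells in FA with ERF wild type (0.833 to 5.32 CPM), and Mycn is highest in that same group (123 to 169 CPM).

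Moving cells from 2iL to FA was compared within each of the 4 lines, which share no libraries. A gene is called changed where the adjusted p of edgeR's quasi-likelihood test (Benjamini-Hochberg over 20372 genes) is under 0.05. Depending on the comparison, the libraries of the 2 groups did not overlap for 24.6 to 65.2% of all genes tested. A lack of overlap in the report is to be read beside these shares. In the reference line 8 of the 10 genes changed, against 49.5% of all genes tested. In RAS-deleted cells 9 changed, against 43.0%. With the label ERF knockout, 8 changed with RAS present, against 46.9%, and 10 with RAS deleted, against 55.7%. Ccnd3 and Cdkn1b fell in all 4 lines, while Myc, Ccne1 and Mycl rose in all 4. Mycn fell in both lines with RAS present and rose in both lines with RAS deleted. The median log2 change of the 10 genes was 0.42, 0.47, 0.48 and 0.89 in the same order of lines, beside 0.03, 0.01, 0.02 and 0.03 over all genes tested. Of the 7 naive markers, all 7 fell in 3 of the lines and 5 fell in RAS-deleted cells with ERF wild type. Of all genes, 24.1% fell in the reference line, 21.4% in RAS-deleted cells, 22.3% with the label ERF knockout and 27.4% with both. The 5 primed markers rose in all 4 lines, from 44.9 to 73.6 CPM over the 2iL libraries to 569 to 642 CPM in the reference line, 113 to 302 CPM in RAS-deleted cells, 364 to 420 CPM with the label ERF knockout and 490 to 518 CPM with both. Of the 6 markers of primitive and visceral endoderm, 5 rose in the reference line, where 25.4% of all genes rose. The 6 summed there to 50.7 to 92.8 CPM in FA and 11.6 to 19.7 CPM in 2iL. The trophoblast markers summed to 27.4 to 36.3 CPM in FA and 117 to 134 CPM in 2iL in the reference line, and the neural markers to 114 to 124 CPM in FA and 35.9 to 37.7 CPM in 2iL in the line with both. In bulk RNA, fewer cells of a type and less RNA per cell cannot be told apart, and the part of these other markers in the results was not tested.

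RAS deletion changed 1 of the 10 genes in 2iL and 6 in FA, in each ERF state, and the share of all genes called was also smaller in 2iL. In 2iL, Cdk6 was the 1 gene of 10 that changed with ERF wild type, against 5.70% of all genes, and again the 1 gene of 10 with the label ERF knockout, against 1.31%. In these 2iL comparisons libraries with the same number deviated together, and a fit with a block for replicate number called 4 and 5 of the 10 genes, against 16.5% and 19.9% of all genes. In FA with ERF wild type 6 of 10 changed, against 41.3% of all genes: Ccnd1, Ccnd2, Ccnd3 and Mycn rose, and Cdk6 and Myc fell. All 6 differed at least 2-fold, against 17.3% of all genes. In FA with the label ERF knockout 6 of 10 changed as well, against 26.4% of all genes: Ccnd1, Ccne1, Mycn and Mycl rose, and Cdk6 and Myc fell. Of the 15 genes of the ERK response list, 9 fell and 0 rose in FA with ERF wild type (median -1.16), where 21.5% of all genes fell, and 12 fell and 1 rose with the label ERF knockout (median -0.86), where 13.7% of all genes fell. The naive markers summed to 1100 to 1765 CPM in RAS-deleted cells in FA with ERF wild type and to 201 to 221 CPM in the reference line in FA; with the label ERF knockout they summed to 262 to 277 CPM with RAS deleted and 190 to 274 CPM with RAS present. Other markers moved too. The 6 endoderm markers summed to 8.63 to 11.2 CPM with RAS deleted and 50.7 to 92.8 CPM with RAS present with ERF wild type, and to 11.7 to 21 CPM and 54.0 to 63.5 CPM under the label. The 5 primed markers summed to 113 to 302 CPM with RAS deleted and 569 to 642 CPM with RAS present with ERF wild type, and to 490 to 518 CPM and 364 to 420 CPM under the label. The 6 trophoblast markers stood at 67.9 to 76.6 CPM with RAS deleted and 27.4 to 36.3 CPM with RAS present with ERF wild type, and the 4 neural markers at 114 to 124 CPM and 52.0 to 65.9 CPM under the label. The part of all these markers in the changes of the cell cycle genes was not tested.

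Changes with the label ERF knockout were fewest in FA with RAS present, both among the 10 genes and among all genes. The reference line has 2 libraries there. In 2iL 7 of 10 genes changed with RAS present, against 27.8% of all genes, and 6 of 10 with RAS deleted, against 39.1%. Ccnd1, Ccne1, Mycn and Mycl fell and Cdk6 rose in both. The 7 became 3 without reference 2iL replicate 3. The 6 trophoblast markers also moved with the label in 2iL: they summed to 46.4 to 57.0 CPM under it and 117 to 134 CPM without it with RAS present, and to 55.8 to 59.5 CPM and 112 to 127 CPM with RAS deleted. The endoderm markers summed to 20.3 to 48.6 CPM under the label and 11.6 to 19.7 CPM without it with RAS present, and the part of both lists in the results was not tested. In FA 2 of 10 changed with RAS present, against 9.78% of all genes, and 6 of 10 with RAS deleted, against 42.8%. The 2 genes in FA with RAS present were Ccne1 and Mycn, both lower. Without reference FA replicate 1, which leaves 1 library in that group, the values were -0.32 for Ccne1 and -0.44 for Mycn. Mycl, not called with all libraries, was at -0.73 in that fit. Markers moved with the label in FA as well. With RAS deleted, naive markers summed to 262 to 277 CPM under the label and 1100 to 1765 CPM without it, trophoblast markers to 24.3 to 27.1 CPM and 67.9 to 76.6 CPM, and neural markers to 114 to 124 CPM and 38.8 to 67.7 CPM. In the same order primed markers summed to 490 to 518 CPM and 113 to 302 CPM, and endoderm markers to 11.7 to 21 CPM and 8.63 to 11.2 CPM. With RAS present, primed markers summed to 364 to 420 CPM under the label and 569 to 642 CPM without it, and ERK response genes to 634 to 661 CPM and 847 to 865 CPM. Trophoblast markers summed to 20.0 to 22.8 CPM and 27.4 to 36.3 CPM in the same order. The part of all these markers in the results was not tested.

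**Figure D2:**
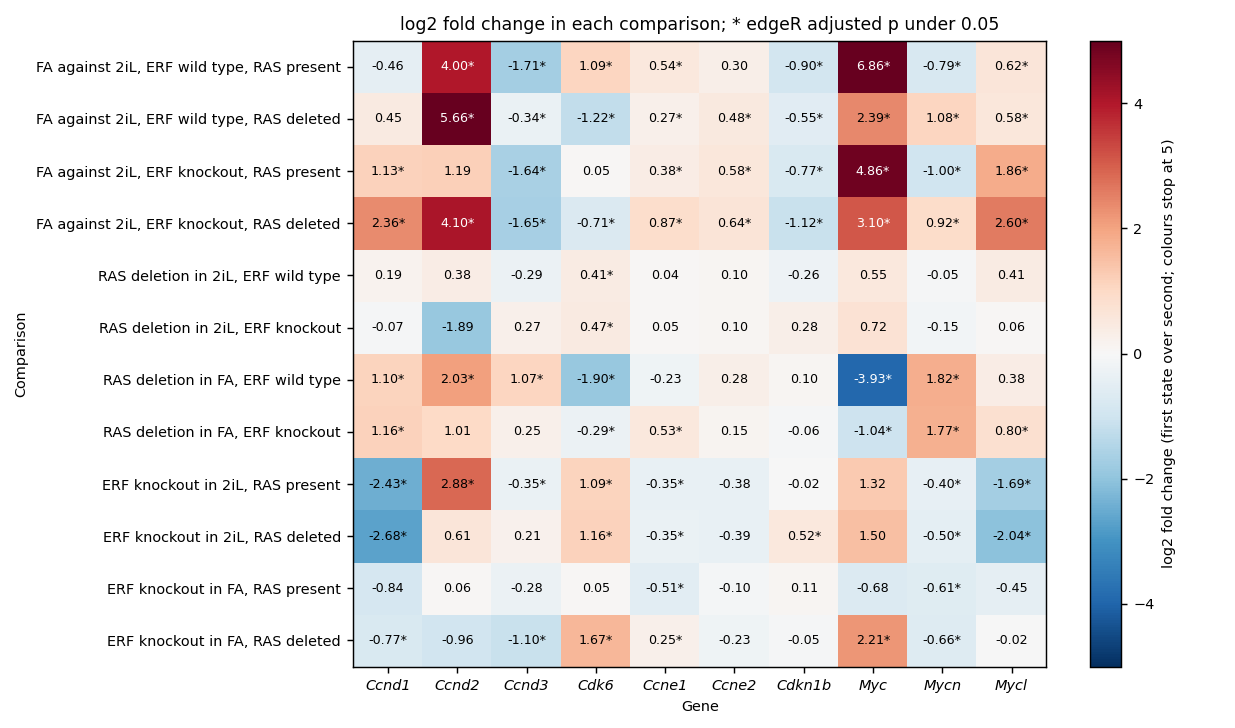
Fitted log2 fold changes of the 10 genes (columns) in the 12 comparisons (rows), with colour from blue (lower) to red (higher) stopping at 5 and an asterisk where edgeR's adjusted p is under 0.05. The rows for RAS deletion have 1 asterisk each in 2iL, at Cdk6, and show in FA higher Ccnd1 and Mycn beside lower Myc in both ERF states.

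Tests of the difference between comparisons were run too. The effect of RAS deletion in FA differed between the ERF states for 4 of the 10 genes, namely Ccnd3, Ccne1, Cdk6 and Myc, against 28.0% of all genes. In 2iL it differed for 1 of 10, Ccnd3, against 1.57%. The medium response of the ERF wild type line differed with RAS deletion for 4 of 10, namely Ccnd3, Cdk6, Myc and Mycn, against 24.5%. With RAS present, the medium response differed with the ERF label for 3 of 10, namely Ccnd1, Cdk6 and Mycl, against 9.34%.

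Ccnd1 encodes cyclin D1 (GRCm38 chromosome 7, 144929931 to 144939925, minus strand). In 2iL it was at 61.4, 67.2 and 71.5 CPM in the reference line and at 76.6, 79.0 and 72.9 CPM in RAS-deleted cells. With the label ERF knockout it was at 15.4, 11.5 and 10.2 CPM with RAS present and at 13.4, 10.8 and 11.3 CPM with RAS deleted. The libraries labelled ERF knockout lay below all others in 2iL without overlap. The log2 change with the ERF label was -2.43 ± 0.31 (SE; adjusted p = 2.38e-05) with RAS present, a 5.38-fold lower level, and -2.68 ± 0.32 (adjusted p = 5.47e-06) with RAS deleted. In FA the 2 libraries of the reference line were far apart, at 69.6 and 27 CPM. The other FA libraries were at 92.9, 95.8 and 123 CPM in RAS-deleted cells, at 31.2, 18.2 and 32.2 CPM in cells labelled ERF knockout, and at 69.2, 70.5 and 42.9 CPM in cells with both. In both ERF states the RAS-deleted libraries lay above those with RAS present. In FA, RAS loss raised Ccnd1 by 1.10 ± 0.32 (adjusted p = 0.0114) on the log2 scale with ERF wild type and by 1.16 ± 0.29 (adjusted p = 0.00727) with the label ERF knockout. The first value was 0.59 without reference FA replicate 2 and 1.96 without reference FA replicate 1. Each of these fits leaves 1 library in the reference line in FA, so only the values are given. When the model held only the groups compared, both calls were lost (adjusted p = 0.120 and 0.0597).

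The medium response of Ccnd1 depended on the line. It rose in FA with the label ERF knockout, by 1.13 ± 0.31 (log2; adjusted p = 0.00666) with RAS present and by 2.36 ± 0.32 (adjusted p = 7.42e-06) with RAS deleted. In the reference line the change was -0.46 ± 0.32 (adjusted p = 0.251), and it was -1.32 without FA replicate 1, which leaves 1 library in FA. In RAS-deleted cells with ERF wild type the change of 0.45 ± 0.28 (adjusted p = 0.212) passed with the replicate number as a block (0.45, adjusted p = 0.0095). The response with RAS present was larger under the label ERF knockout by 1.59 ± 0.45 (adjusted p = 0.0338). Over 11 fits that left out 1 library the value ran from 1.07 to 2.45. The call was lost without 2iL replicate 2 or 3 of the reference line. It was also lost without 2iL replicate 2 or 3 or FA replicate 1 or 3 labelled ERF knockout. No call is given for fits that leave 1 library in the reference line in FA. In FA with RAS deleted, the ERF label went with a change of -0.77 ± 0.28 (adjusted p = 0.0342), which did not pass without RAS-deleted FA replicate 2 or 3 or without replicate 3 of the line with both (adjusted p = 0.0526 to 0.151). With RAS present in FA the difference was -0.84 ± 0.32 (adjusted p = 0.108). It was 0.04 without reference FA replicate 1 and -1.34 without replicate 2, fits that leave 1 library in that group.

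Ccnd2 encodes cyclin D2 (chromosome 6, 127125162 to 127152193, minus strand). It was near the lower end of detection in 2iL, at 1.09, 0.833 and 0.836 CPM in the reference line, 0.86, 1.17 and 1.60 CPM in RAS-deleted cells, and 1.08, 2.13 and 2.43 CPM in RAS-deleted cells labelled ERF knockout. With the label ERF knockout and RAS present it was at 3.60, 5.36 and 11.9 CPM, above the 3 other 2iL groups. That difference from the reference line was 2.88 ± 0.85 (log2; adjusted p = 0.0190). It did not pass without any 1 of the 3 reference 2iL libraries or without 2iL replicate 3 labelled ERF knockout (adjusted p = 0.0526 to 0.0988). The endoderm markers summed to 20.3, 32.5 and 48.6 CPM in these 3 libraries labelled ERF knockout, in the same order. Their part in these values of Ccnd2 was not tested. RAS deletion within the label ERF knockout in 2iL gave -1.89 ± 0.80 (adjusted p = 0.280), which passed with the replicate number as a block (-1.83, adjusted p = 7.27e-08).

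In FA, Ccnd2 was at 13.5 and 16.8 CPM in the reference line, at 17.5, 11.7 and 18.1 CPM with the label ERF knockout, and at 30.7, 34.7 and 30.2 CPM in RAS-deleted cells with that label. In RAS-deleted cells with ERF wild type it was at 13.1, 43.0 and 129 CPM, so the libraries of 1 group differed among themselves more than most groups differed from each other. FA raised Ccnd2 by 4.00 ± 0.84 (log2; adjusted p = 8.38e-04) in the reference line, by 5.66 ± 0.76 (adjusted p = 1.80e-05) in RAS-deleted cells and by 4.10 ± 0.73 (adjusted p = 1.65e-04) in the line with both. The second value was 4.52 without RAS-deleted FA replicate 3. With the label ERF knockout and RAS present the change was 1.19 ± 0.61 (adjusted p = 0.124), and the libraries of the 2 media overlapped. RAS deletion in FA with ERF wild type raised Ccnd2 by 2.03 ± 0.65 (adjusted p = 0.0196), but the groups overlapped. This call was lost without RAS-deleted FA replicate 3 (0.90, adjusted p = 0.150) and in a model of the compared groups alone (adjusted p = 0.283). The value was 1.89 without reference FA replicate 1 and 2.21 without reference FA replicate 2, fits that leave 1 library in that group. With the label ERF knockout RAS deletion gave 1.01 ± 0.55 (adjusted p = 0.196) without overlap, as 46.9% of all genes tested did not overlap there. In FA with RAS deleted the ERF label gave -0.96 ± 0.53 (adjusted p = 0.167). The last passed without RAS-deleted FA replicate 1 (-1.43, adjusted p = 0.00851) and was 0.18 without replicate 3.

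The RAS-deleted FA library with the most Ccnd2, replicate 3, was also at one end of its group in other measures. It had the most Myc (5.32 CPM, beside 0.833 and 1.70 CPM), the least Cdkn1b (19.5 CPM, beside 34.9 and 26.3 CPM), the lowest sum of the 7 naive markers (1100 CPM, beside 1765 and 1331 CPM) and the highest sum of the 5 primed markers (302 CPM, beside 113 and 190 CPM). The sum of the 15 ERK response genes was also highest there (465 CPM, beside 335 and 402 CPM), although still below the reference line in FA (847 and 865 CPM). The part of these measures in the values of Ccnd2 was not tested.

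Ccnd3 encodes cyclin D3 (chromosome 17, 47505051 to 47599691, plus strand). In 2iL it ran from 154 to 232 CPM over the 12 libraries. In FA it was at 57.2 and 73.9 CPM in the reference line, 51.2, 59.3 and 51.6 CPM with the label ERF knockout, and 62.6, 67.1 and 63.4 CPM in the line with both. RAS-deleted cells with ERF wild type stood apart in FA at 133, 145 and 135 CPM, above the other FA libraries and below all 2iL libraries. The fall in FA was -1.71 ± 0.11 (log2; adjusted p = 2.56e-11) in the reference line and -0.34 ± 0.10 (adjusted p = 0.00559) in RAS-deleted cells, and the difference between these was 1.37 ± 0.15 (adjusted p = 2.73e-07). With the label ERF knockout the fall was -1.64 ± 0.10 (adjusted p = 5.41e-12) with RAS present and -1.65 ± 0.10 (adjusted p = 3.21e-12) with RAS deleted. In FA, RAS deletion raised Ccnd3 by 1.07 ± 0.11 (adjusted p = 6.06e-08) with ERF wild type, and the effect was smaller by -0.82 ± 0.15 (adjusted p = 1.92e-04) with the label ERF knockout. Between RAS-deleted FA groups Ccnd3 was lower by -1.10 ± 0.10 (adjusted p = 4.59e-09) with the label ERF knockout.

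In 2iL the differences in Ccnd3 were small. The label ERF knockout with RAS present went with -0.35 ± 0.10 (log2; adjusted p = 0.00806), which did not pass without reference 2iL replicate 3 (-0.29, adjusted p = 0.0516). RAS deletion gave -0.29 ± 0.10 (adjusted p = 0.0710) with ERF wild type and 0.27 ± 0.10 (adjusted p = 0.178) with the label ERF knockout. With the replicate number as a block both passed, at -0.29 (adjusted p = 0.00336) and 0.25 (adjusted p = 5.24e-04). The first also passed without reference 2iL replicate 1 (-0.39, adjusted p = 0.0289). The difference between the 2 effects was 0.56 ± 0.14 (adjusted p = 0.0366), a call lost in 10 of 12 fits that left out 1 library (adjusted p = 0.0530 to 0.107); it held without replicate 1 of the reference line and without replicate 1 of the line with both.

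Promoter windows from RefSeq (build GRCm38.p6, 250 bases before to 50 bases after a start) were found for 6 of the 10 genes, in 7 windows; Ccnd1, Ccnd2, Ccne2 and Myc were not in the table. They were searched on both strands for the ETS sequence CCGGAA and the E-box CACGTG that MYC and MAX bind. The E2F sequence TTTGGCGC and the TCF sequence CTTTGAT were searched too, and none of these overlap here. Other forms of these sites, including other ETS sequences, were not searched. The second Ccnd3 window, chr17:47593217-47593516 on the plus strand, is printed because ERF is an ETS factor. It alone among the 7 holds the searched sequence CCGGAA, in capitals, at position -138 from the start. Of 32851 windows of the same length, 14.9% hold CCGGAA. A match is a description of letters and not a site of binding.

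Ccnd3 second start: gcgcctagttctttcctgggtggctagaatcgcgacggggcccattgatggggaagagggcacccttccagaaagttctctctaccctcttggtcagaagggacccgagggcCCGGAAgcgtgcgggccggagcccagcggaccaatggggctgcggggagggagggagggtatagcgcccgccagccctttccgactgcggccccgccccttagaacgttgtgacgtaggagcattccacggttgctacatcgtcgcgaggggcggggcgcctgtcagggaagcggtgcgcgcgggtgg

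Cdk6 encodes a kinase that D-type cyclins activate (chromosome 5, 3341485 to 3531008, plus strand). In 2iL it was at 14.7, 17.9 and 16.1 CPM in the reference line, 21.5, 21.7 and 21.1 CPM in RAS-deleted cells, 34.7, 33.1 and 35.6 CPM with the label ERF knockout, and 42.6, 47.9 and 52.8 CPM with both. These 4 groups did not overlap. The ERF label went with a rise of 1.09 ± 0.09 (log2; adjusted p = 1.38e-08) with RAS present and 1.16 ± 0.09 (adjusted p = 2.17e-09) with RAS deleted. RAS deletion raised Cdk6 by 0.41 ± 0.10 (adjusted p = 0.0150) with ERF wild type and by 0.47 ± 0.09 (adjusted p = 0.0124) with the label ERF knockout. The first of these calls was lost without reference 2iL replicate 1 or RAS-deleted 2iL replicate 2 (adjusted p = 0.108 and 0.0579). The second was lost without 2iL replicate 2 labelled ERF knockout and without 2iL replicate 2 or 3 of the line with both (adjusted p = 0.0663 to 0.0954).

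In FA, Cdk6 was at 36.6 and 32.1 CPM in the reference line, 34.2, 34.5 and 38.2 CPM with the label ERF knockout, and 30.3, 29.5 and 27.8 CPM with both. RAS-deleted cells with ERF wild type held 9.42, 8.02 and 10.1 CPM, the lowest of all 23 libraries. RAS deletion in FA thus went with -1.90 ± 0.10 (log2; adjusted p = 3.10e-12), a 3.73-fold lower level, with ERF wild type, and with -0.29 ± 0.09 (adjusted p = 0.0209) with the label ERF knockout. The smaller value was -0.58 (adjusted p = 0.00173) with effective length as an offset, and did not pass without FA replicate 3 labelled ERF knockout or FA replicate 3 of the line with both (adjusted p = 0.0897 and 0.0737). The difference between the 2 effects was 1.61 ± 0.14 (adjusted p = 1.30e-08). FA raised Cdk6 by 1.09 ± 0.10 (adjusted p = 6.87e-09) in the reference line and lowered it, by -1.22 ± 0.10 (adjusted p = 1.20e-09), in RAS-deleted cells and by -0.71 ± 0.09 (adjusted p = 5.41e-07) in the line with both. With effective length as an offset the last was -1.54 (adjusted p = 8.04e-10). Between RAS-deleted FA groups the level was higher by 1.67 ± 0.10 (adjusted p = 5.46e-12) with the label ERF knockout, or by 0.73 (adjusted p = 9.65e-05) with effective length as an offset.

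The effective length of Cdk6, which the quantifier derives from the transcripts its reads are assigned to, moved with these groups. It was 1337 to 1815 bases in the 12 libraries in 2iL and 1251, 1533 and 1829 bases in RAS-deleted FA cells with ERF wild type. In the other FA groups it was 2825 and 2723 bases in the reference line, 2558, 2284 and 2356 bases with the label ERF knockout, and 2824, 3363 and 2602 bases with both. The part of this shift in the counts of Cdk6 was not tested beyond the fit with effective length given next. Annotated transcripts of Cdk6 run from 376 to 11525 bases (GENCODE M21). Per kilobase, Cdk6 was at 10.8 ± 0.432 CPM per kb (SD, n = 3) in the reference line in 2iL and at 12.4 ± 0.823 CPM per kb (n = 2) in FA, so the levels of the 2 media were closer on this scale. Under the ERF knockout label with RAS present, Cdk6 stood at 34.5 ± 1.27 CPM in 2iL and 35.7 ± 2.19 CPM in FA (SD, n = 3), and at 20.5 ± 0.847 and 14.9 ± 1.42 CPM per kb. With effective length as an offset in the model, the FA change in the reference line was 0.22 ± 0.14 (log2; adjusted p = 0.201) and the ERF difference in the RAS effect in FA was 0.46 ± 0.18 (adjusted p = 0.0790), so neither passed. The fall with RAS deletion in FA with ERF wild type did pass, at -1.04 ± 0.14 (adjusted p = 3.52e-06), with 6.10 ± 1.25 CPM per kb (n = 3) in RAS-deleted cells. So did the rise with the ERF label in 2iL, at 0.93 ± 0.12 (adjusted p = 1.12e-05) with RAS present. The rises with RAS deletion in 2iL did not (0.24 and 0.51, adjusted p = 0.316 and 0.0672).

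**Figure D3:**
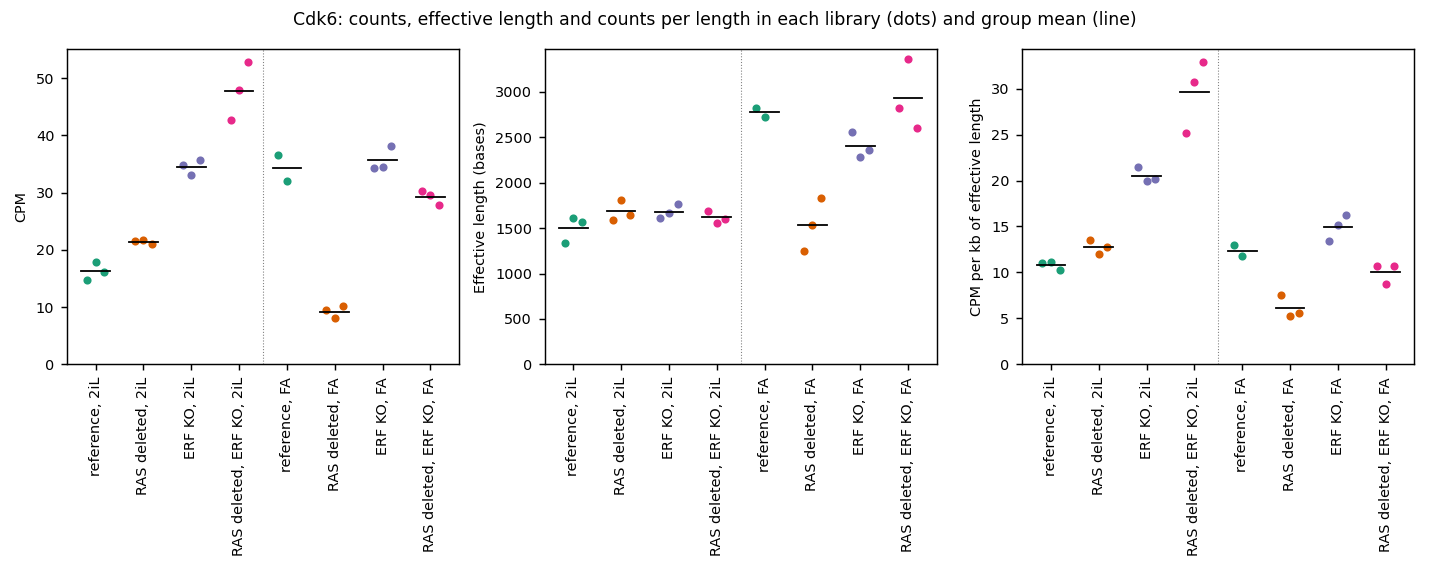
Cdk6 in each library as CPM (left), effective length in bases (middle) and CPM per kb of effective length (right), all on linear axes from 0; dots are libraries and lines are group means. The 8 FA libraries other than those of RAS-deleted cells with ERF wild type have effective lengths of 2284 to 3363 bases, above the 1251 to 1829 bases of the other 15 libraries.

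The Cdk6 window, chr5:3343643-3343942 on the plus strand, is shown because it alone among the 7 windows holds CACGTG, in capitals, at position -220 from the start. The MYC genes are among the 10, and 7.15% of the 32851 windows hold CACGTG.

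Cdk6: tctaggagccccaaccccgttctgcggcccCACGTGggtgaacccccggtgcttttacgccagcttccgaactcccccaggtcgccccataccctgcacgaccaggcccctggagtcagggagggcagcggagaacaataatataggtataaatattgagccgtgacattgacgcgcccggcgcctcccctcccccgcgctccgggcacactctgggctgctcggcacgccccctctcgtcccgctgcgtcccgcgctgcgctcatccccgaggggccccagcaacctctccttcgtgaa

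Ccne1 encodes cyclin E1 (chromosome 7, 38097984 to 38107534, minus strand) and moved little beside the D-type cyclins, from 37.1 to 82.8 CPM over all libraries. Its group means were 51.3 ± 7.74 CPM (SD, n = 3) in the reference line in 2iL and 74.4 ± 11.4 CPM (n = 2) in FA. FA raised it in all 4 lines, by 0.54 ± 0.11 (log2; adjusted p = 1.88e-04) in the reference line, 0.27 ± 0.10 (adjusted p = 0.0270) in RAS-deleted cells, 0.38 ± 0.10 (adjusted p = 0.00262) with the label ERF knockout and 0.87 ± 0.10 (adjusted p = 8.35e-08) with both. The first was 0.24 without the 4 libraries of raised chromosome 8, a fit with 1 reference library in FA. The second was lost without RAS-deleted 2iL replicate 2 or 3 or FA replicate 1 or 3 (adjusted p = 0.0537 to 0.0798). In 2iL the ERF label went with -0.35 ± 0.10 in both RAS states (adjusted p = 0.00929 with RAS present and 0.00696 with RAS deleted). The call with RAS present was lost without replicate 3 of either group (adjusted p = 0.0853 and 0.0560). In FA, RAS deletion with the label ERF knockout raised Ccne1 by 0.53 ± 0.10 (adjusted p = 2.96e-04), from 51.6 to 52.6 CPM to 67.5 to 82.8 CPM, and its effect differed between the ERF states by 0.76 ± 0.14 (adjusted p = 2.92e-04). The ERF label itself went with -0.51 ± 0.11 (adjusted p = 0.00425) with RAS present, or -0.32 without reference FA replicate 1, which leaves 1 library there. With RAS deleted it went with 0.25 ± 0.10 (adjusted p = 0.0379). The last call was lost without replicates 1 or 2 of either group (adjusted p = 0.0577 to 0.191).

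Ccne2, for cyclin E2 (chromosome 4, 11191351 to 11204779, plus strand), was low at 4.99 to 12.6 CPM. FA raised it by 0.48 ± 0.18 (log2; adjusted p = 0.0310) in RAS-deleted cells, 0.58 ± 0.18 (adjusted p = 0.0119) with the label ERF knockout and 0.64 ± 0.18 (adjusted p = 0.00510) with both. The first was lost without RAS-deleted 2iL replicate 2 or 3 or FA replicate 2 or 3 (adjusted p = 0.0535 to 0.170), and the third without FA replicate 1 of the line with both (adjusted p = 0.0525). None of the 8 comparisons of RAS or ERF states passed for this gene.

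Cdkn1b (chromosome 6, 134920401 to 134925513, plus strand) fell on entry to FA. It stood at 36.4 to 64.5 CPM in the 12 libraries in 2iL and at 19.5 to 34.9 CPM in the 11 libraries in FA, without overlap. The log2 change was -0.90 ± 0.18 (adjusted p = 3.09e-04) in the reference line, -0.55 ± 0.16 (adjusted p = 0.00841) in RAS-deleted cells, -0.77 ± 0.16 (adjusted p = 4.08e-04) with the label ERF knockout and -1.12 ± 0.16 (adjusted p = 4.86e-06) with both. The second was -0.36 (adjusted p = 0.0528) without RAS-deleted FA replicate 3. In FA the 4 group means lay between 25.1 and 27.1 CPM, and no comparison of RAS or ERF states passed there. In 2iL RAS-deleted cells had 39.8, 41.5 and 36.4 CPM with ERF wild type and 47.4, 57.4 and 64.5 CPM with the label ERF knockout, a difference of 0.52 ± 0.16 (adjusted p = 0.0117) that did not pass without replicate 3 of either group (adjusted p = 0.0503 and 0.0655). RAS deletion in 2iL gave -0.26 ± 0.16 (adjusted p = 0.362) with ERF wild type and 0.28 ± 0.16 (adjusted p = 0.430) with the label ERF knockout, and both passed once replicate number was a block (-0.25 and 0.27, adjusted p = 0.0259 and 8.41e-04).

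Myc (chromosome 15, 61985391 to 61990374, plus strand) had the widest range of group means, 114-fold. In 2iL it was barely detected, at 0.175, 0.298 and 0.604 CPM in the reference line (5, 5 and 13 counts) and at no more than 1.68 CPM elsewhere. In FA it was at 46.4 and 35.5 CPM in the reference line, 25.7, 20.2 and 30.8 CPM with the label ERF knockout, and 13.4, 13.5 and 10.4 CPM in RAS-deleted cells with that label. RAS-deleted cells with ERF wild type had 0.833, 1.70 and 5.32 CPM. The 4 FA groups did not overlap. FA raised Myc by 6.86 ± 0.53 (log2; adjusted p = 6.07e-09) in the reference line, by 2.39 ± 0.57 (adjusted p = 0.00246) in RAS-deleted cells, by 4.86 ± 0.46 (adjusted p = 9.21e-08) with the label ERF knockout and by 3.10 ± 0.44 (adjusted p = 8.78e-06) with both. The first of these rests on few 2iL counts and was 7.49 without reference 2iL replicate 3; the second was 1.32 without RAS-deleted FA replicate 3. RAS deletion lowered the medium response of the ERF wild type line by -4.47 ± 0.96 (adjusted p = 0.00215), and by -5.54 without RAS-deleted FA replicate 3 or -5.10 without reference 2iL replicate 3.

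In FA, RAS deletion lowered Myc by -3.93 ± 0.40 (log2; adjusted p = 4.17e-07) with ERF wild type, a 15.2-fold lower level, and by -1.04 ± 0.33 (adjusted p = 0.0286) with the label ERF knockout. The first value was -5.0 without RAS-deleted FA replicate 3. The second did not pass with DESeq2 (adjusted p = 0.0812), nor in 5 of 6 fits that left out 1 library, namely FA replicate 1 or 3 labelled ERF knockout or any FA library of the line with both (adjusted p = 0.0603 to 0.0937). The effect of RAS deletion differed between the ERF states by 2.89 ± 0.52 (adjusted p = 3.98e-04), or by 3.96 without RAS-deleted FA replicate 3. Among RAS-deleted FA cells Myc was higher by 2.21 ± 0.38 (adjusted p = 1.26e-04) with the label ERF knockout, and by 3.28 without that library. With RAS present the ERF label went with -0.68 ± 0.36 (adjusted p = 0.251) in FA.

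Mycn (chromosome 12, 12936093 to 12941914, minus strand), the most abundant MYC gene per kb in the reference line in 2iL, rose on RAS deletion in FA, where Myc fell. In 2iL it was at 56.5, 78.6 and 77.5 CPM in the reference line, 66.9, 68.2 and 70.2 CPM in RAS-deleted cells, 56.5, 49.9 and 54.8 CPM with the label ERF knockout, and 45.1, 49.3 and 50.7 CPM with both. In FA it was at 44.7 and 37.2 CPM in the reference line and at 26.1, 27.7 and 26.7 CPM with the label ERF knockout, but at 123, 142 and 169 CPM in RAS-deleted cells and at 90.6, 93.9 and 90.4 CPM with both. RAS-deleted FA libraries were above all 2iL libraries, and FA libraries with RAS present were below them. FA went with -0.79 ± 0.13 (log2; adjusted p = 1.59e-05) in the reference line and -1.0 ± 0.11 (adjusted p = 1.45e-07) with the label ERF knockout, and with 1.08 ± 0.11 (adjusted p = 4.18e-08) in RAS-deleted cells and 0.92 ± 0.11 (adjusted p = 2.36e-07) with both. The medium response differed between the RAS states by 1.87 ± 0.17 (adjusted p = 1.95e-08) with ERF wild type. Deleting RAS in FA raised Mycn by 1.82 ± 0.13 (adjusted p = 1.64e-10) with ERF wild type and by 1.77 ± 0.11 (adjusted p = 2.27e-10) with the label ERF knockout. The difference between these was -0.05 ± 0.17 (adjusted p = 0.871); a difference of this size was within its error, which does not show that the effects are equal.

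The ERF label went with less Mycn in each of 4 comparisons: -0.40 ± 0.11 (log2; adjusted p = 0.00916) in 2iL with RAS present, -0.50 ± 0.11 (adjusted p = 0.00100) in 2iL with RAS deleted, -0.61 ± 0.12 (adjusted p = 0.00390) in FA with RAS present and -0.66 ± 0.11 (adjusted p = 2.90e-05) in FA with RAS deleted. The first did not pass without reference 2iL replicate 2 or 3 or 2iL replicate 2 labelled ERF knockout (adjusted p = 0.0511 to 0.0603). The third was -0.44 without reference FA replicate 1, which leaves 1 library in that group. RAS deletion in 2iL with the label ERF knockout gave -0.15 ± 0.11 (adjusted p = 0.582), which passed with the replicate number as a block (-0.17, adjusted p = 0.0484). The Mycn window, chr12:12941787-12942086 on the minus strand, is shown because it alone among the 7 windows holds TTTGGCGC, in capitals, at positions -183 and -168 from the start. Of the 32851 windows, 0.51% hold this E2F sequence.

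Mycn: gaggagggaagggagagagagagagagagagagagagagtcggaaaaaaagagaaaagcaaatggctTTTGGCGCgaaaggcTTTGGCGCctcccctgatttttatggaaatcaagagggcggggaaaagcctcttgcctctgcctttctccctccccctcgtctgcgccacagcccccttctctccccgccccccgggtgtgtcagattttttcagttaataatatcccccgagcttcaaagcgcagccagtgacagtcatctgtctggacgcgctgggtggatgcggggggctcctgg

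Mycl (chromosome 4, 122995652 to 123002485, plus strand) followed the ERF label in 2iL. It was at 15.0, 20.7 and 19.4 CPM in the reference line and 23.8, 23.6 and 25.6 CPM in RAS-deleted cells, but at 5.24, 5.63 and 6.10 CPM and at 5.98, 5.66 and 6.07 CPM in the corresponding groups labelled ERF knockout. All 6 libraries with the label lay below the other 6. The log2 change was -1.69 ± 0.16 (adjusted p = 6.26e-08) with RAS present and -2.04 ± 0.16 (adjusted p = 1.92e-09) with RAS deleted. In FA it was at 21.4 and 34.9 CPM in the reference line, 42.3, 34.2 and 32.8 CPM in RAS-deleted cells, 22.9, 19.3 and 19.4 CPM with the label ERF knockout, and 36.2, 38.1 and 33.2 CPM with both. The ERF groups of each RAS state overlapped in FA, where the label went with -0.45 ± 0.15 (adjusted p = 0.0684) with RAS present. FA raised Mycl by 0.62 ± 0.16 (adjusted p = 0.00213) in the reference line, or 0.22 without FA replicate 2, which leaves 1 library there. The rise was 0.58 ± 0.14 (adjusted p = 0.00162) in RAS-deleted cells, 1.86 ± 0.16 (adjusted p = 1.89e-09) with the label ERF knockout and 2.60 ± 0.16 (adjusted p = 5.47e-12) with both. With RAS present the medium response was larger under the label by 1.25 ± 0.22 (adjusted p = 8.63e-04). With RAS deleted in FA, Mycl rose by 0.80 ± 0.14 (adjusted p = 2.15e-04) with the label ERF knockout and differed by 0.38 ± 0.15 (adjusted p = 0.0526) with ERF wild type. The latter passed without RAS-deleted FA replicate 3 (0.45, adjusted p = 0.0332). It was 0.78 without reference FA replicate 2 and -0.04 without the 4 libraries of raised chromosome 8, fits with 1 reference library in FA. In 2iL RAS deletion gave 0.41 ± 0.14 (adjusted p = 0.0880) with ERF wild type, which passed with the replicate number as a block (0.42, adjusted p = 0.0121).

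Other cell cycle genes were followed as lists without the 10 genes. S phase genes, 16 genes for replication licensing, DNA synthesis and cyclin A2, were at their lowest in FA cells labelled ERF knockout with RAS present, where they summed to 1753 to 1783 CPM; in the other 3 FA groups they summed to 2237 to 2581 CPM. Of the 16, 14 were lower with the ERF label in FA with RAS present against 5.40% of all genes (median -0.45, beside 0.00 over all genes), led by the licensing factor Cdt1 (-0.98), the loader Cdc6 (-0.74), the helicase subunit Mcm5 (-0.66) and the ribonucleotide reductase subunit Rrm2 (-0.62). With RAS deletion under the label ERF knockout in FA, 15 of 16 were higher, against 12.7% of all genes (median 0.48, beside 0.00 over all genes), led by Cdc6 (1.19), Rrm2 (0.72), Cdt1 (0.56) and Mcm2 (0.53). These comparisons share the 3 FA libraries labelled ERF knockout. The effect of RAS deletion differed between the ERF states in FA for 13 of 16, all toward higher values with the label, against 14.4% of all genes. With ERF wild type RAS deletion in FA raised 1 and lowered 4 (median -0.03), a smaller share than the 41.3% of all genes. In 2iL edgeR's test called 0 of 16 in either ERF state. Under the label ERF knockout the sums were 2164, 2157 and 2147 CPM with RAS present and 2366, 2444 and 2487 CPM with RAS deleted, without overlap. There 7 of 16 were higher at an unadjusted p under 0.05, DESeq2 called 1, and the paired fit with a block for replicate number called 9, all higher, against 19.9% of all genes, led by Mcm7 (0.21) and Mcm6 (0.20). With ERF wild type the unadjusted count was 0, and DESeq2 and the paired fit also called 0. Of the 16 genes of G2 and M phase, 1 was lower and 0 higher with the ERF label in FA with RAS present, against 9.78% of all genes, and 2 rose and 1 fell with RAS deletion under the label, against 26.4%.

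**Figure D4:**
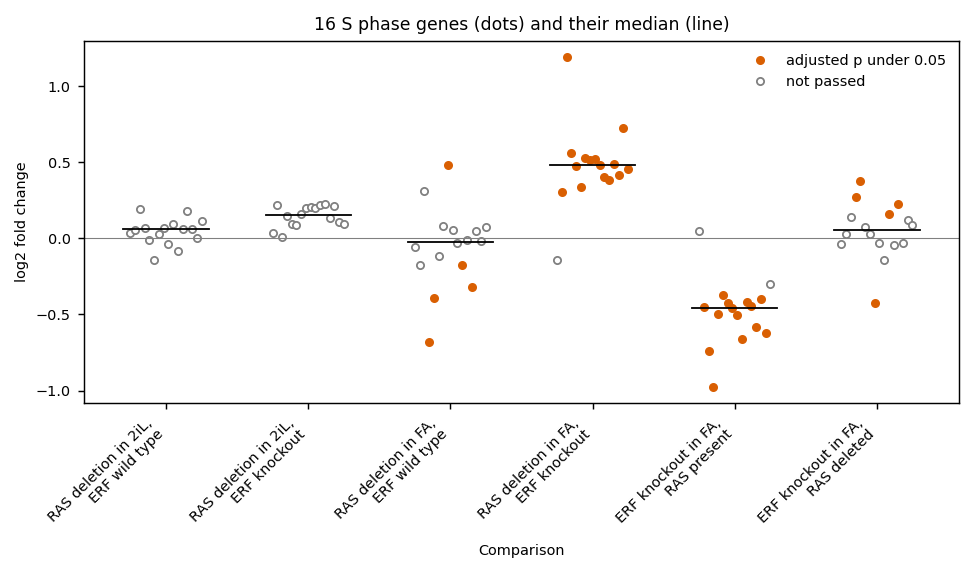
Fitted log2 fold changes of the 16 S phase genes in 6 comparisons; each dot is 1 gene, filled where edgeR's adjusted p is under 0.05, and the line is the median of the 16. RAS deletion in FA under the label ERF knockout has 15 filled dots above 0, and the ERF label in FA with RAS present has 14 filled dots below 0.

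Partners and brakes of the CDKs were counted next. Of the 4 kinases Cdk1, Cdk2, Cdk4 and Cdk7, Cdk4 rose (0.55) and Cdk2 fell (-0.42) in FA in the reference line, where 49.5% of all genes changed. Cdk4 was lowered by RAS deletion in FA with ERF wild type (-0.30) and raised by it under the label ERF knockout (0.42), and the difference between these passed (0.71). Of the 6 other CDK inhibitors, 2 rose and 3 fell in the reference line on entry to FA, where 49.5% of all genes changed, among them Cdkn1c, which encodes p57, at 3.12, Cdkn2c at -1.73 and Cdkn1a at -1.56. RAS deletion in FA with ERF wild type raised 4 and lowered 1 of them (median 0.60), against 41.3% of all genes changed, with Cdkn2c at 0.91, Cdkn2d at 0.73, Cdkn1a at 0.70 and Cdkn1c at 0.50; under the label ERF knockout 0 of 6 passed in edgeR or DESeq2, with 1 at an unadjusted p under 0.05. Of 13 RB and E2F genes 4 rose and 4 fell with RAS deletion in FA with ERF wild type, led by the E2F partner Tfdp1 (-0.89) and by Rb1 (0.83), and 4 rose and 0 fell under the label ERF knockout, led by E2f8 (0.54). All genes changed at 41.3% and 26.4% in these comparisons.

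Genes around MYC were examined in the same way. In the MYC network list of 9 partners and antagonists, RAS deletion in FA with ERF wild type raised 5 and lowered 1, where 19.8% of all genes rose and 21.5% fell, led by the antagonists Mxd1 (0.90) and Mxd4 (0.79) and by the partner Max (0.48). Mxd4 also rose in FA in the reference line (2.05), and in 2iL it was lower with the ERF label (-1.02 with RAS present and -1.68 with RAS deleted). Of 14 MYC target genes 6 rose and 1 fell in FA in the reference line (median 0.22, beside 0.03 over all genes), led by Odc1 (1.67) of polyamine synthesis and Ldha (1.54), a lactate dehydrogenase. These 7 of 14 are near the 49.5% of all genes that changed. On RAS deletion in FA 5 fell and 1 rose with ERF wild type (median -0.11), with Ldha at -0.94 and the nucleolar protein gene Npm1 at -0.59, and 4 rose and 0 fell under the label ERF knockout (median 0.13), with Ldha at 0.82. The difference between these effects passed for 5 of 14, all toward higher values with the label. Of all genes, 41.3%, 26.4% and 28.0% were called in these 3 tests, beside 6, 4 and 5 of the 14. These are list counts and no test of a list was made.

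Across the 23 libraries, which share groups and media, the log2(CPM + 1) values of some of the 10 genes ran together or apart. Ccnd3 and Myc ran opposite (Pearson r = -0.94), while Ccne1 and Mycl (r = 0.85) and Ccnd1 and Mycl (r = 0.84) ran together. Myc and Mycn had r = -0.40, and Ccnd1 and Cdk6 had r = -0.78. Among 10207 tested genes of at least 5 CPM on average, those most like Myc were Ubr7 (r = 0.98), Peg10 (0.98) and Esrp1 (0.97). The genes most like Ccnd2 were Phldb1 (0.95), Armcx4 (0.95) and Stra6 (0.94), and those most like Ccnd1 were Zmiz1 (0.96), Clasp1 (0.96) and Tbc1d9 (0.94). These correlations are descriptions and carry no test.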

How the data were processed

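RNA depleted of ribosomal RNA was sequenced as paired reads of 75 bases with a directional kit, per the labels' protocols. The submitters' processing notes name bcl2fastq 2.20.0, fastp 0.20.0, Salmon and the build mm10; further settings are not given in the sources used here. The authors deposited whole-number counts per gene for the whole series, and per library the estimated counts, TPM and effective length of each gene; the deposited counts equal the rounded estimated counts. Counts were used for every test. TPM served as another scaling of levels, and effective length for CPM per kb and as an offset.

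Counts were fitted in edgeR 4.0.16 (R 4.3.3, limma 3.58.1), with filterByExpr, TMM scaling, 1 model of all 8 groups and robust quasi-likelihood tests, for 12 comparisons and 4 tests of a difference between comparisons. Adjusted p-values are Benjamini-Hochberg over all genes tested, with a threshold of 0.05, and the SE is the log2 change divided by the root of F. The script was tested on simulated data. DESeq2 1.42.0 and other settings were alternatives; list counts under the block and DESeq2 were added after seeing the data. The 10 genes, the lists and the tests were chosen with earlier results of these data known. The 10 genes were tested and counted in every comparison, and values are given for those that passed and some that did not; up to 4 genes of a list are named, by the largest change among those that passed; and for the 3 genes with the widest range of group means, the 3 genes of highest Pearson correlation over 23 libraries are named.

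Libraries of the same number were taken as paired where every pair's deviations from the group means correlated above 0.1. This held for both RAS deletion comparisons in 2iL (r from 0.31 to 0.52) and for FA against 2iL in the RAS-deleted line and both lines labelled ERF knockout (r from 0.16 to 0.37). No libraries of a group agreed within sampling noise (chi-square per degree of freedom 3.04 to 44.9 over 22 pairs). 1 target gene is not reported here.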

Additional observations from a re-analysis of the deposited data

Results flagged for a closer look

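The effect of RAS deletion in FA differed between the ERF states by 1.61 (log2; edgeR adjusted p = 1.30e-08) for Cdk6 and by 2.89 (adjusted p = 3.98e-04) for Myc, each less negative with the label ERF knockout. With effective length as an offset the value for Cdk6 was 0.46 (adjusted p = 0.0790) and did not pass. The response to FA of the ERF wild type line differed with RAS deletion by 1.37 (adjusted p = 2.73e-07) for Ccnd3, by -2.31 (adjusted p = 6.27e-11) for Cdk6, by -4.47 (adjusted p = 0.00215) for Myc and by 1.87 (adjusted p = 1.95e-08) for Mycn. With the same offset the value for Cdk6 was -1.28 (adjusted p = 2.93e-05). With RAS present, the response to FA differed with the ERF label by 1.59 (adjusted p = 0.0338) for Ccnd1, by -1.04 (adjusted p = 3.02e-05) for Cdk6 (-0.66 with the offset, adjusted p = 0.0316) and by 1.25 (adjusted p = 8.63e-04) for Mycl. The value for Ccnd1 ran from 1.07 to 2.45 over fits without 1 library. Each was picked out because a test of the difference between 2 contrasts passed and the difference was at least 1 on the log2 scale.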

How the results depend on the processing

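Of the 82 changes of single genes that passed, 60 passed in every fit that left out 1 library and 22 did not in at least 1. Leaving out 1 library moved the count of genes that passed between 0 and 1 for RAS deletion in 2iL in each ERF state. The count moved between 3 and 7 for the ERF label in 2iL with RAS present, and 0 and 1 for the ERF difference in the RAS effect in 2iL. Fits without a reference FA library leave 1 library in that group, so their spread comes from the other groups. The share of all genes called in the same fit follows each count in parentheses. Requiring at least a 2-fold change left 4 (24%), 4 (16.5%), 5 (19.7%) and 6 (24.9%) of the 10 genes for FA against 2iL (reference, RAS deleted, ERF label, both). It left 0 (1.20%) and 0 (0.211%) for RAS deletion in 2iL, 3 (6.88%) for RAS deletion in FA under the ERF label, 4 (9.72%) and 3 (13%) for the ERF label in 2iL, 0 (2.36%) and 3 (16.6%) for it in FA, and 2 (13.7%) in FA and 0 (0.378%) in 2iL for the ERF difference in the RAS effect. Without the low-count filter 3 (5.17%) and 2 (2.44%) passed for RAS deletion in 2iL, 5 (7.34%) for the ERF label in FA with RAS present, 3 (3.15%) for the ERF difference in 2iL and 5 (6.35%) for the ERF difference in the medium response. With effective length as an offset 0 (3.12%) and 0 (0.319%) passed for RAS deletion in 2iL and 0 (0.677%) for the ERF difference there. With DESeq2 2 (10.7%) and 2 (3.86%) passed for RAS deletion in 2iL, and with only the compared groups 2 (5.76%) under the ERF label. With the replicate block 4 (16.5%) and 5 (19.9%) passed for RAS deletion in 2iL, 4 (6.14%) and 3 (35.5%) for the ERF label in FA, and 2 (4.46%) for the ERF difference in 2iL; only the 2iL comparisons of RAS deletion are paired among these, and for them and the paired medium comparisons the report gives each call that the block added. Signs turned in these cases, none of which passed in the model of all libraries: Ccnd1 for FA in the reference line (-1.32 to 0.0509 over fits without 1 library), Ccnd1 for the ERF label in FA with RAS present (-1.34 to 0.0399), Ccnd2 for it with RAS deleted (-1.43 to 0.18), and the ERF difference in FA of Ccnd1 (-0.80 to 0.56) and Mycn (-0.21 to 0.0811). With the replicate block the Ccnd1 difference was -0.0039. Without the 4 libraries of raised chromosome 8, an alternative chosen after seeing the data, that difference was -0.88, Mycl for RAS deletion in FA was -0.0424 and Ccnd1 for the ERF label in FA was 0.0405; the cause was not tested. Depth limits Myc and Ccnd2 in 2iL most.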
